A study of Mus musculus with 2 samples.

Results

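Messenger RNA of 10 genes for the intermediate filaments and dense bodies of muscle was measured in ureters of mouse embryos of the NMRI strain at E18.5, by 2-colour microarray. The genes were Des, Synm, Synpo2, Ldb3, Pdlim3, Pdlim7, Nexn, Palld, Flna and Vcl, and their probes were taken by gene name from the non-control spots of both arrays. The genes are represented by 20 of the 39429 probes of the array, and all 10 genes are among the 20989 features (genes or unnamed transcripts) tested. Rbpj-cKO embryos have the genotype Tbx18(cre/+);Rbpj(fl/fl), in which a cre recombinase made from 1 Tbx18 allele acts on 2 floxed alleles of Rbpj. Control embryos have the genotype Rbpj(fl/?), so that at least 1 floxed allele is shared by both groups, and no cre is listed for them. The Tbx18(cre) allele thus differs between the groups as well, and its effect cannot be told apart from that of Rbpj loss. There were 2 arrays: a male one with Rbpj-cKO RNA in the red channel and male control RNA in the green, and a female one with Rbpj-cKO RNA in the green channel and female control RNA in the red. Sex and dye orientation coincide, so a difference between the arrays cannot be assigned to either. How many embryos contributed to an RNA, and whether they were pooled, is not stated in the labels. Limma's p-values therefore rest only on the spread between these 2 arrays, and most of a gene's variance is drawn from that of all features.

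Smooth muscle cells have no sarcomeres. Their actin filaments end in dense bodies in the cytoplasm and in dense plaques at the membrane, which hold proteins also found at the Z-disc of striated muscle, and desmin and vimentin filaments tie the dense bodies together. The ureter moves urine by peristaltic contraction of such cells, which form late in fetal life from the mesenchyme around the epithelial tube. RBPJ binds DNA and passes the signal of activated Notch receptors to target genes, and Tbx18 is expressed in the progenitors of the ureteric mesenchyme. Cre made from the Tbx18 locus is thus directed at the mesenchyme and its descendants and not at the urothelium, while the RNA came from the whole ureter. In such bulk RNA, fewer smooth muscle cells and less of a transcript per cell cannot be told apart.

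The share of non-control spots well above background was 66.8% to 71.1% over the 4 channels, with no saturated spot. The 9 core smooth muscle genes and the 17 urothelial markers all passed the background filter. Rbpj itself had log2 ratios of Rbpj-cKO over control of -1.58 (male array) and -0.93 (female array) (mean -1.25, limma adjusted p = 0.0760), which missed the threshold of 0.05. Whether its probe lies in the part removed by cre was not analysed here, so the value alone does not check the labels. Ratios on the female array changed with the position of the spot: their median ran between -0.15 at the low end of the 532 rows and 0.15 at the high end, while the male array had 0.05 and -0.03 there. With this trend removed, the mean log2 ratios of the 10 genes kept their sign except that of Pdlim7, and single-array ratios changed sign for Nexn (male array, 0.01) and Flna (female array, -0.05).

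Of the 10 genes, 4 were at least 1.5-fold lower in Rbpj-cKO ureters on both arrays: Synpo2, Synm, Ldb3 and Des. Among all features, 0.434% were. The 10 genes were chosen with earlier results of these data known, so such shares are not a fair background for them. The count was 2 with median centring (Synm and Synpo2) and 2 when the probes of each gene were averaged (Des and Synpo2), and 4 in the other 8 settings. Some of those 8 left the ratios of the 10 genes as they were, so the count could not change there. No gene of the 10 passed limma's test over all features at an adjusted p of 0.05, which 0.129% of all features did, and 0.0858% with a lower level. A further reading of the same ratios gave the same 4 genes a limma unadjusted p under 0.05 and a lower level, against 1.90% of all features. The other 6 genes had mean log2 ratios between -0.19 and 0.18. The median over the 10 genes was -0.18 (-0.36 for the male array and -0.12 for the female), and that over all features was 0.01. In the plot of ratios by probe, 10 of the 17 probes that passed the background filter were lower on both arrays, 2 were higher on both, and 5 had opposite signs. Some of these probes read the same gene, and 5 of the 10 genes were lower on both arrays at the brightest probe. Among all features the shares were 19.7% lower on both, 21.7% higher on both and 58.6% with opposite signs.

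**Figure D1:**
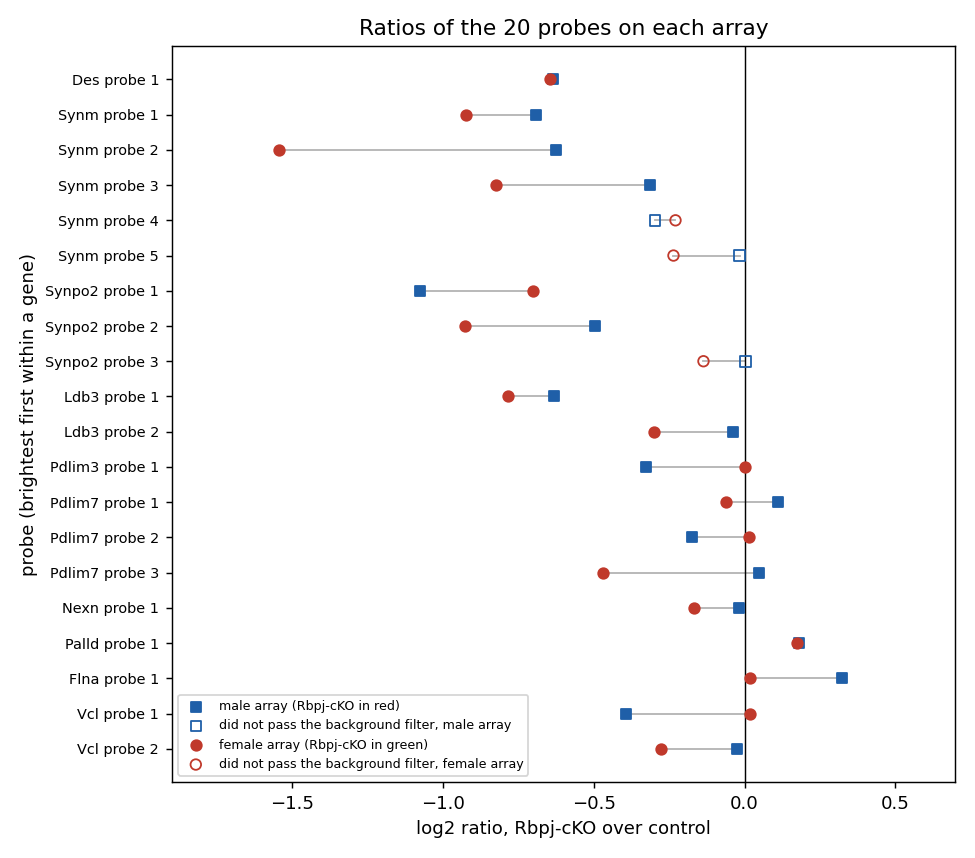
Log2 ratio of Rbpj-cKO over control (x axis) of each of the 20 probes (rows, the brightest first within a gene) on the male (squares) and female array (circles). Filled symbols passed the background filter; the probes of Des, the brightest 3 of Synm, the brightest 2 of Synpo2 and the brightest of Ldb3 lie left of -0.3 on both arrays.

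Des encodes desmin, the intermediate filament protein of muscle. Its log2 normalised level was 10.60 in Rbpj-cKO and 11.24 in control ureters on the male array. On the female array it was 10.21 in Rbpj-cKO and 10.85 in control ureters. The log2 ratios were -0.63 (male array) and -0.64 (female array) (mean -0.64, SD 0.01, n = 2), a 1.56-fold lower level. Limma's 95% interval of the mean ran from -1.06 to -0.22, with an adjusted p of 0.760. Its standard error, 0.19, comes mostly from the variance of all features and not from the SD of 0.01. Only 0.758% of all features had a lower mean. The probe matches chromosome 1, 75363404 to 75363629 (mm9, plus strand), a span of 226 positions, longer than the probe's 60 bases. Probe sequences are shown by their first 30 bases, all in lower case, to let a reader see which transcripts were read.
Des: cccgggatggagaggttgtcagcgaggcta

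This probe was printed 10 times on each array, which gives a measure of the error within an array. The spots had ratios of -0.68 to -0.59 on the male array (SD 0.03, 10 spots). On the female array they had -0.88 to -0.42 (SD 0.17). In the female array's spots the ratio was less negative at each higher row, as the plot of Des spots shows. Over the 399 probes printed 10 times, the median SD was 0.05 (male array) and 0.14 (female array), beside 0.03 and 0.17 for Des. With Agilent's processed signals, which include a spatial correction, the Des spots had means of -0.67 (male array) and -0.70 (female array) (SD 0.01 and 0.06). With the trend along rows and columns removed, a step chosen after these spots were seen, the means were -0.63 and -0.66. All 20 spots were below 0 in both forms of the data.

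**Figure D2:**
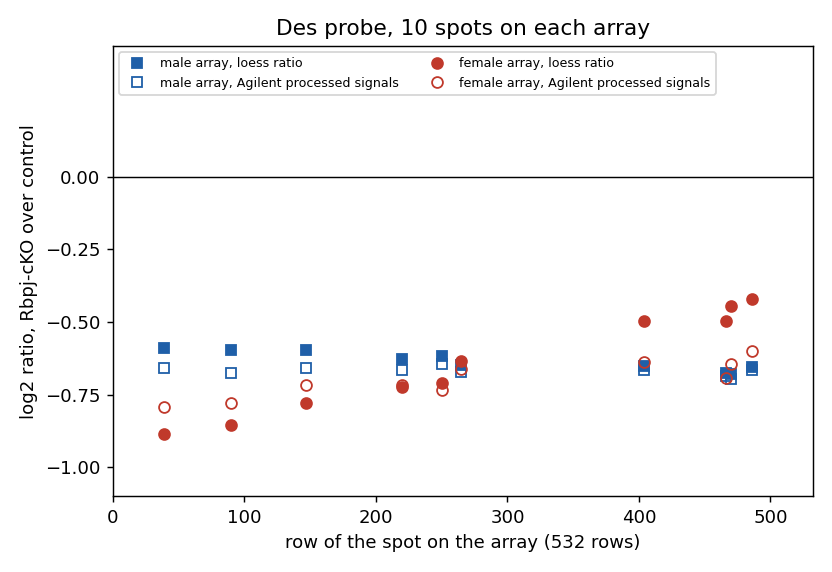
Log2 ratio of Rbpj-cKO over control (y axis) of the 10 spots of the Des probe on each array against the row of the spot (x axis). Filled symbols are loess ratios and open symbols Agilent's processed signals; the loess ratios of the female array run between -0.88 and -0.42 along the rows, and those of the male array stay between -0.68 and -0.59.

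Synm encodes synemin, a large intermediate filament protein that assembles with desmin or vimentin and binds actin-anchoring proteins of dense bodies and Z-discs. The array holds 5 probes for it. At the brightest, the log2 normalised level was 8.88 and 8.83 in Rbpj-cKO ureters (male and female array), against 9.57 and 9.75 in control ureters. The ratios were -0.69 and -0.92 (mean -0.81, SD 0.17, n = 2), 1.75-fold lower, with a 95% interval from -1.24 to -0.38 and a limma adjusted p of 0.361. The next probe gave -0.63 and -1.54 (mean -1.09), with levels of 8.95 and 8.27 in Rbpj-cKO and 9.57 and 9.81 in control ureters. The dimmest of the measured probes gave -0.31 and -0.82 (mean -0.57). Of these 3 probes, the second had an SD of 0.65, the largest of any probe of the 10 genes. Of the other 2 probes, 1 was well above background only in the control RNA of a single array, and the other, which the files assign to another Synm transcript, was so in no RNA, so neither gives a ratio to read. With the row trend removed the female ratios of the 3 measured probes were -0.97, -1.42 and -0.68. The measured probes lie on chromosome 7 (mm9, minus strand) at 74876200 to 74876259, 74875365 to 74875424 and 74877629 to 74877688.
Synm, first probe: gttactacggctgtggctcgtcatctctta
Synm, second probe: agttcctcctgagatcagaacttttcccta
Synm, dimmest measured probe: gtaagctaacactggaaaggaaaataggtg

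Synpo2 encodes synaptopodin 2, also called myopodin, an actin-bundling protein of dense bodies and Z-discs. It had the lowest mean of the 10 genes. The log2 normalised level was 13.94 and 14.38 in Rbpj-cKO ureters (male and female array), against 15.02 and 15.08 in control ureters. The ratios were -1.08 and -0.70 (mean -0.89, SD 0.26, n = 2), 1.85-fold lower. The 95% interval ran from -1.33 to -0.45, the limma adjusted p was 0.272, and 0.248% of all features had a lower mean. A second, dimmer probe gave -0.50 and -0.93 (mean -0.71), with levels of 8.86 and 8.25 in Rbpj-cKO and 9.35 and 9.18 in control ureters. The array on which the ratio was farther from 0 thus differed between the probes. Another probe was not well above background in any RNA. The measured probes lie on chromosome 3 (mm9, minus strand) at 122779459 to 122779518 and 122782094 to 122782153.
Synpo2, first probe: ctctgtcctcaaaggctgtatgtgaaagat
Synpo2, second probe: gatataacatgcatttgccatttaccttgt

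Ldb3 encodes a PDZ and LIM domain protein, also called ZASP or Cypher, that binds alpha-actinin at the Z-disc of striated muscle. Its brighter probe had log2 normalised levels of 11.44 and 11.34 in Rbpj-cKO ureters (male and female array), against 12.07 and 12.12 in control ureters. The ratios were -0.63 and -0.78 (mean -0.71, SD 0.11, n = 2), 1.63-fold lower, with a 95% interval from -1.13 to -0.28 and a limma adjusted p of 0.543. A dimmer probe, which the files assign to another Ldb3 transcript, gave -0.04 and -0.30 (mean -0.17), with levels of 7.52 and 7.39 in Rbpj-cKO and 7.56 and 7.69 in control ureters. The probes lie apart on chromosome 14 (mm9, minus strand), the first at 35340222 to 35340281 and the second, upstream of it, at 35374689 to 35374748. The difference between their ratios was not tested. With Agilent's processed signals the dimmer probe had -0.04 (male array) and -0.43 (female array). The error of Feature Extraction there was 0.29 and 0.30, against 0.21 on each array at the brighter probe, so the dimmer probe is read less precisely. The mean of both probes was -0.44, against -0.71 from the brighter probe alone. With the position trend removed the brighter probe had -0.68 and -0.63.
Ldb3, brighter probe: gcatagtgttaagattaaggctgaatgtcg
Ldb3, dimmer probe: aactcccacaagtggagtctctgtacaccc

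Within single arrays, the error model of Agilent Feature Extraction gave these 4 genes, and no other of the 10, a p under 0.01 and a lower level in Rbpj-cKO RNA on both arrays. Among all features 0.715% met that rule. It compares 2 RNAs on 1 array and not the genotypes, and its error of the log2 ratio at the tested probes of these 4 genes was between 0.21 and 0.23. The rule reads the same spots as the ratios by which these 4 genes were singled out, so it is no separate support for them. All 4 ratios kept their sign under every alternative processing tried. Settings that changed only the filter, the unit tested or the prior variance left these ratios as they were, so they do not bear on the sign. The plot of levels gives each channel of the 10 genes.

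**Figure D3:**
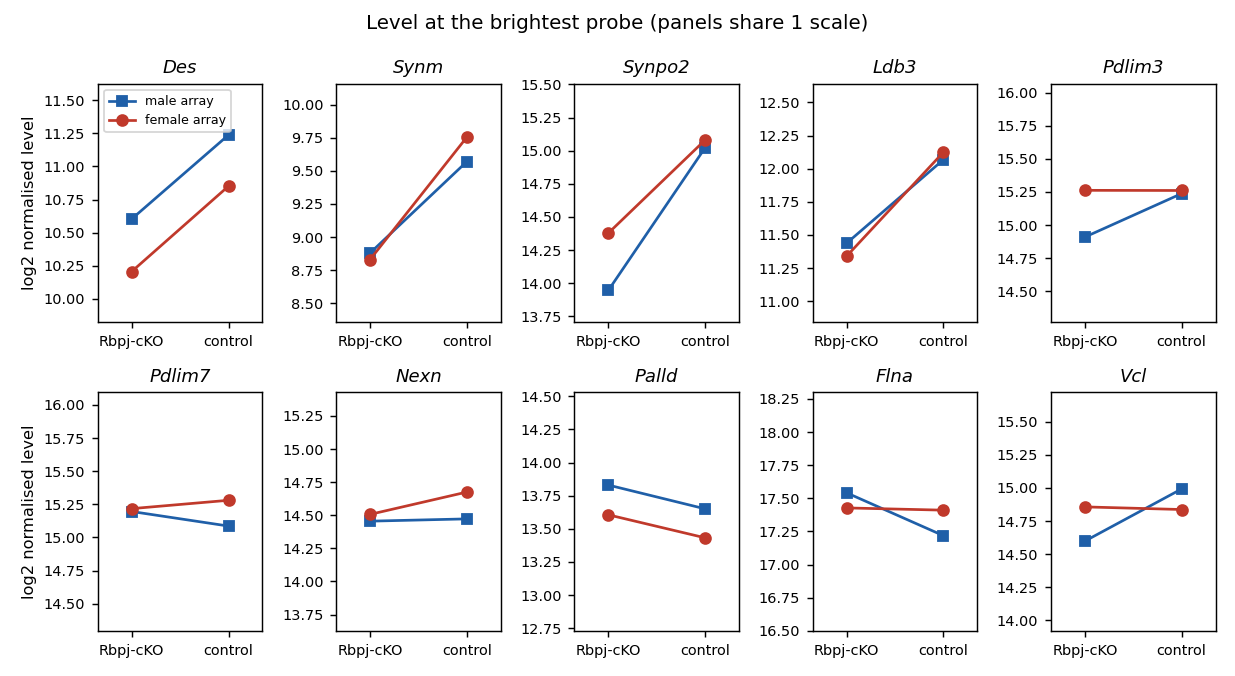
Log2 normalised level of the brightest probe of each gene (y axis, on 1 scale in all panels) in Rbpj-cKO (left) and control RNA (right) on the male (squares) and female array (circles). Des, Synm, Synpo2 and Ldb3 are lower in Rbpj-cKO RNA on both arrays, and the lines of the other 6 genes are flatter or differ in slope between the arrays.

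Of the other 2 genes for PDZ and LIM domain proteins, neither had ratios below 0 on both arrays at its brightest probe. Pdlim3, also called ALP, is an alpha-actinin-binding protein. Its log2 normalised level was 14.91 and 15.26 in Rbpj-cKO ureters (male and female array), against 15.24 and 15.26 in control ureters. Its ratio was -0.33 on the male array and 0.00 on the female array (mean -0.16, 95% interval -0.60 to 0.27, limma adjusted p = 1.00), so its mean rests on the male array in this setting. With median centring it was 0.06 on the male array and -0.33 on the female array. Pdlim7, also called Enigma, had levels of 15.20 and 15.22 in Rbpj-cKO and 15.09 and 15.28 in control ureters at its brightest probe. The ratios were 0.11 and -0.06 (mean 0.02, 95% interval -0.40 to 0.45, adjusted p = 1.00), and the sign of the mean turned with the processing. It was -0.03 with Agilent's processed signals or with the position trend removed and -0.09 as the mean of its probes, against 0.06 with median centring. Its other probes had means of -0.08 and -0.21, the lower of them from -0.47 on the female and 0.05 on the male array. The intervals of Pdlim3 and Pdlim7 overlap that of Ldb3, and no difference between the genes was tested.

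Among the actin-binding proteins, Nexn, which encodes nexilin, had log2 normalised levels of 14.46 and 14.51 in Rbpj-cKO ureters (male and female array), against 14.47 and 14.68 in control ureters. Its ratios were -0.02 and -0.17 (mean -0.09, 95% interval -0.52 to 0.33). Palld encodes palladin, an actin-bundling scaffold. It had levels of 13.83 and 13.61 in Rbpj-cKO and 13.65 and 13.43 in control ureters, with ratios of 0.18 and 0.17 (mean 0.18, 95% interval -0.25 to 0.60). It was slightly higher on both arrays, as 21.7% of all features were. Each of these genes had a limma adjusted p of 1.00.

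Flna encodes filamin A, which cross-links actin filaments and ties them to integrins. Its log2 normalised level was 17.54 and 17.43 in Rbpj-cKO ureters (male and female array), against 17.22 and 17.41 in control ureters. The ratios were 0.32 and 0.02 (mean 0.17, 95% interval -0.26 to 0.60), and the female ratio became -0.04 with Agilent's processed signals. With median centring the ratios of Flna were 0.99 and -0.66. Vcl encodes vinculin, which links talin and actin at membrane plaques. It had levels of 14.60 and 14.86 in Rbpj-cKO and 14.99 and 14.84 in control ureters. Its ratios were -0.39 and 0.02 (mean -0.19, 95% interval -0.63 to 0.26), and a second Vcl probe gave -0.03 and -0.28. In both genes the male ratio was farther from 0 than the female at the brightest probe. For Vcl this did not hold with median centring (-0.04 and -0.25, male and female array). Each of the genes had a limma adjusted p of 1.00.

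Of the 10 genes, 5 were lower on both arrays (the 4 above and Nexn), as 19.7% of all features were. Nexn was not among them with Agilent's processed signals (0.05 and -0.26), with median centring (0.30 and -0.40) or with the position trend removed (0.01 and -0.22). A further 2 (Palld and Flna) were higher on both, and 3 (Pdlim3, Pdlim7 and Vcl) had opposite signs, as 58.6% of all features had. Flna also had opposite signs with Agilent's processed signals (0.29 and -0.04), with median centring (0.99 and -0.66) and with the position trend removed (0.37 and -0.05). In the plot of one array against the other, Des, Ldb3, Synm and Synpo2 lie in the lower left, outside the cloud of features around 0.

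**Figure D4:**
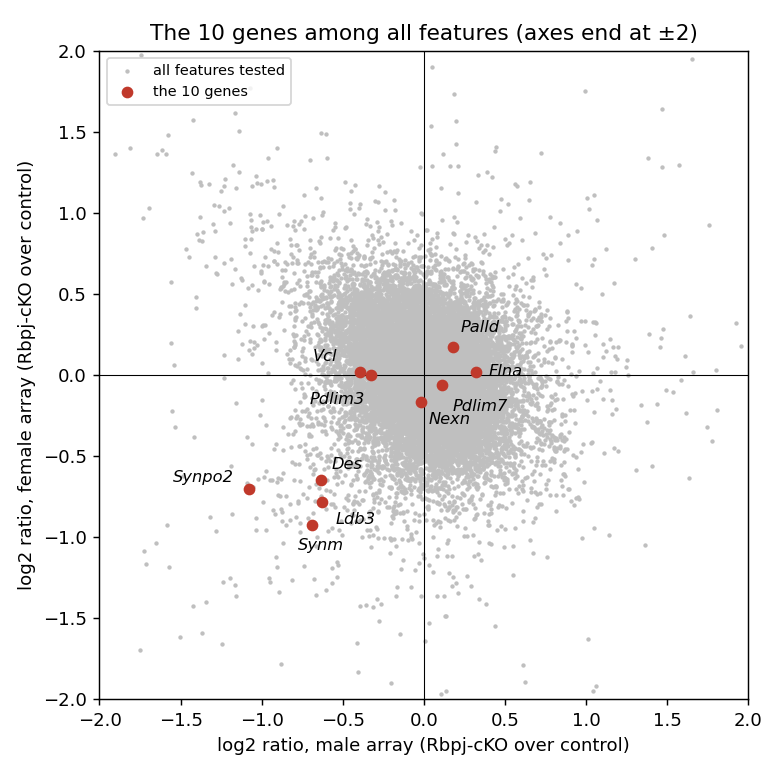
Log2 ratio of Rbpj-cKO over control on the male (x axis) and female array (y axis) for all features tested (grey) and the 10 genes (red), with axes that end at 2 in both directions. Synpo2 (-1.08, -0.70), Synm (-0.69, -0.92), Ldb3 (-0.63, -0.78) and Des (-0.63, -0.64) lie apart from the other 6.

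Related genes were read from lists chosen with earlier results of these data known. Of 16 other intermediate filament and linker genes measured, none passed the test, 4 were lower and 6 higher on both arrays, and the median log2 ratio was 0.03. The lowest was Sync, which encodes syncoilin, a filament protein that binds desmin (-0.61 and -0.82, male and female array, limma adjusted p = 0.539), followed by the nuclear lamin Lmnb1 (mean -0.31). The highest were the linker Plec, which encodes plectin (0.34), and the peripheral neuron filament gene Prph (0.36). Gfap and Myot did not pass the background filter.

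Of 40 other dense body and Z-disc genes measured, none passed the test, 15 were lower and 4 higher on both arrays, and the median was -0.04. The lowest were the tropomyosin Tpm2 (-0.56) and the actin regulator caldesmon, Cald1 (-0.51). The highest were Pdlim1 (0.16) and the non-muscle alpha-actinin Actn4 (0.17), both with a negative ratio on the male and a positive one on the female array. The genes Mypn, Csrp3, Xirp1, Xirp2, Nebl and Lmod2, which in striated muscle encode proteins of the Z-disc or of thin filaments, did not pass the background filter.

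Of 30 other genes of membrane plaques and adhesion, none passed, 10 were lower and 3 higher on both arrays, and the median was -0.09. The lowest were the laminin receptor subunit Itga7 (-0.40) and N-cadherin, Cdh2 (-0.38), and the highest were the adaptor Bcar1 (0.17) and talin, Tln1 (0.24). Of 19 dystrophin complex and caveola genes, none passed, 5 were lower and 4 higher on both arrays, and the median was -0.04. Muscle caveolin, Cav3, had ratios of -0.81 and -1.26 (male and female array, mean -1.04, limma adjusted p = 0.146), and the caveolin gene Cav2 had a mean of -0.46, from -0.99 (male array) and 0.08 (female array). Among the highest was the dystroglycan gene Dag1 (0.32).

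All 9 core smooth muscle contractile genes were lower on both arrays, none passed the test, and their median was -0.32. The lowest was the gamma actin of smooth muscle, Actg2 (-0.58), and the others named were calponin, Cnn1 (-0.38), smooth muscle myosin, Myh11 (-0.35), the coactivator Myocd (-0.29), smooth muscle actin, Acta2 (-0.20), Tagln (-0.13) and the light chain Myl6 (-0.09). The means of Des, Ldb3, Synm and Synpo2, from -0.64 to -0.89, were below all 9. These genes were singled out for their low ratios, so that comparison cannot set the lists apart. The median over all 10 genes, -0.18, was above the -0.32 of the core list. With its probes averaged, Ldb3 had -0.44, which is not below the -0.58 of Actg2's brightest probe. No difference between the lists was tested. The summed normalised intensity of the 9 genes was 1026660 and 991194 in Rbpj-cKO ureters (male and female array), against 1237440 and 1139830 in control ureters.

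**Figure D5:**
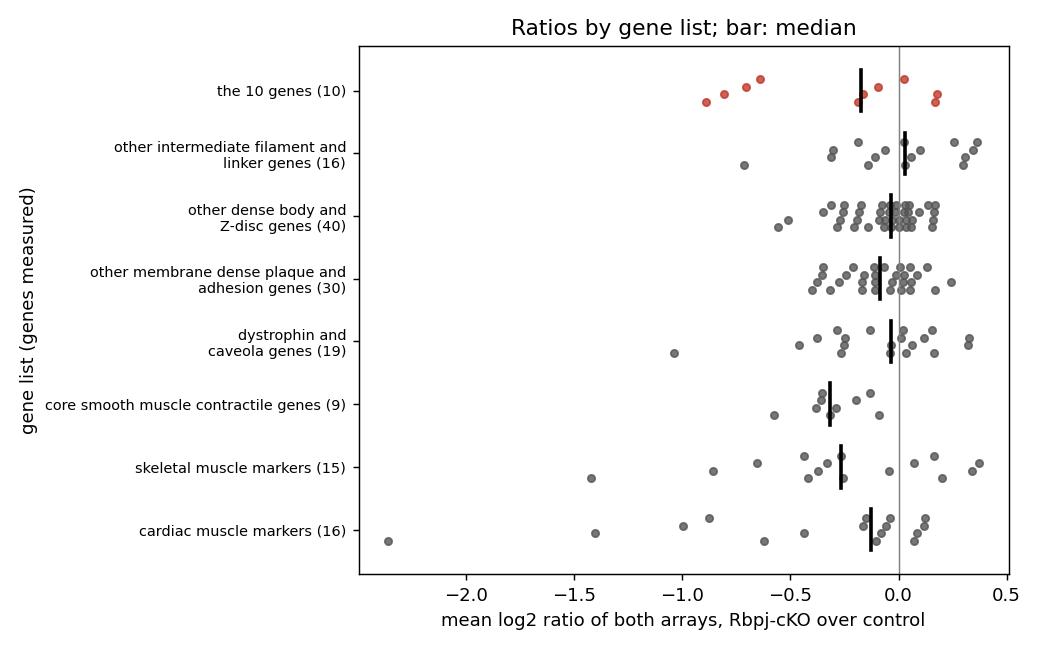
Mean log2 ratio of Rbpj-cKO over control (x axis) of each measured gene in the 10 genes (red) and 7 related or marker lists (grey), with the number measured in parentheses and the median as a bar. The medians are -0.18 for the 10 genes, -0.32 for the core smooth muscle list and between -0.09 and 0.03 for the other 4 structural lists.

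Des, Synm, Ldb3 and Synpo2 are also expressed in skeletal and cardiac muscle, whose markers gave the following values. Of 15 skeletal muscle markers measured of 24, Ckm, the muscle creatine kinase, fell (-1.43, limma adjusted p = 0.0203), 8 were lower and 3 higher on both arrays, and the median was -0.27. Their summed intensity was 52793 and 56423 in Rbpj-cKO ureters (male and female array), against 69693 and 66174 in control ureters. The regulators Myod1, Myog and Myf5 and the adult myosins Myh1, Myh2 and Myh4 did not pass the background filter. Of 16 cardiac markers measured of 18, Myh6, the alpha cardiac myosin (-2.36, adjusted p = 0.000755), and the light chain Myl4 (-1.40, adjusted p = 0.0356) fell, 10 were lower and 1 higher on both arrays, and the median was -0.13. Their summed intensity was 119869 and 112384 in Rbpj-cKO ureters, against 215949 and 195489 in control ureters. Such a sum is set mostly by the few brightest genes of a list, here as for the other lists. No feature passed the test with Agilent's processed signals or with the position trend removed, so these calls, and that of Heyl below, are lost there. The part of striated muscle in the ratios of the 10 genes was not tested.

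Desmin is also made by pericytes. Of 14 pericyte and vascular mural markers measured, Heyl, a Notch-induced repressor, fell (-1.38, limma adjusted p = 0.0247), 8 were lower and 2 higher on both arrays, and the median was -0.15. Their summed intensity was 87125 and 77402 in Rbpj-cKO ureters (male and female array), against 87453 and 93251 in control ureters. Of 17 urothelial markers, 11 were higher and 0 lower on both arrays, none passed the test, and the median was 0.19. Their summed intensity was 1003950 and 1064040 in Rbpj-cKO ureters, against 837184 and 901874 in control ureters. Mesothelial markers had a median of 0.25, fibroblast and outer mesenchyme markers 0.19, erythroid markers 0.14, ureter mesenchyme transcription factors 0.05, endothelial markers -0.07, immune markers -0.13, and nerve and glial markers -0.24, with no gene of these lists past the test. The part of each in the ratios of the 10 genes was not tested.

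The sequence upstream of each gene was searched for 2 motifs, those of RBPJ and of a regulator of smooth muscle genes. Windows of 300 bases (250 before to 50 after a gene's start, GRCm38.p6, from RefSeq's promoter table) were used for 9 of the 10 genes, 12 windows in all; Nexn is named only. Both strands were searched for the CArG box, the site of serum response factor, which drives smooth muscle genes with the coactivator myocardin, and for TGGGAA, the core of the RBPJ site. A CArG box was found for Ldb3 and Vcl, 2 of the 9 genes, or in 3 of their 12 windows, and in 1.63% of all 32851 windows. TGGGAA was found for Palld, Pdlim3 and Vcl, 3 of the 9 genes, or in 3 of their 12 windows, and in 25.6% of all windows. No TGGGAA was in the windows of Des, Synm, Synpo2 or Ldb3, which says only that these letters are absent there. The upstream 250 bases of Ldb3, Vcl, Pdlim3 and Palld are shown because each holds at least 1 of the motifs, with capitals for the CArG box and for TGGGAA on either strand. The Ldb3 stretch is chr14:34588682-34588931 (minus strand), with a CArG box that starts 35 bases before the gene's start and also lies in the window of its other start. The Vcl stretch is chr14:20929148-20929397 (plus strand), with a CArG box 227 bases and TGGGAA 145 bases before the start. The Pdlim3 stretch is chr8:45885237-45885486 (plus strand), with TGGGAA on the other strand 9 bases before the start. The Palld stretch is chr8:61902708-61902957 (minus strand), 1 of 3 Palld windows, with TGGGAA on the other strand.
Ldb3: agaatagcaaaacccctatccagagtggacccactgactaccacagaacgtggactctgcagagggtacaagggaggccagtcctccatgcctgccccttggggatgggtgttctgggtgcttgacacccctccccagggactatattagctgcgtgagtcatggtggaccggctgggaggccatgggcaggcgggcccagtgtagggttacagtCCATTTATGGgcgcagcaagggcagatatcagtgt
Vcl: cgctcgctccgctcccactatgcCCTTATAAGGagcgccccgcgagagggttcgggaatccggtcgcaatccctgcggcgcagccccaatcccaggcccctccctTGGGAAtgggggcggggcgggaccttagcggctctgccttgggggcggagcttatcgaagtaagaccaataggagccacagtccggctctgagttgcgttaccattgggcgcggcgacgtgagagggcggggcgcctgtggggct
Pdlim3: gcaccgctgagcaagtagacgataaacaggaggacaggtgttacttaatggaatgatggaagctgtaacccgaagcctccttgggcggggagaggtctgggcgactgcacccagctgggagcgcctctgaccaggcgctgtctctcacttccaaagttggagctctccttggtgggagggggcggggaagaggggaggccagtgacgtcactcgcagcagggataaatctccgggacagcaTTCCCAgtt
Palld: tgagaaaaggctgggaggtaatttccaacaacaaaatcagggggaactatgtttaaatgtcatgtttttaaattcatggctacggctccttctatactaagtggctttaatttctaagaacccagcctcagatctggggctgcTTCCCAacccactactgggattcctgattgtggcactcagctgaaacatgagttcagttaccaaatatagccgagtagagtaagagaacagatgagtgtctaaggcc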

How the data were processed

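RNA of dissected ureters was labelled with AlexaFluor555 or AlexaFluor647 after amplification, per the labels' protocols. Spot intensity values in the deposited scanner output were made with Agilent Feature Extraction 10.7.3.1 (submitters' processing notes). Per the file headers, mean and median background signals are unnormalized intensity values, processed signals are intensity values taken after background subtraction, spatial detrending and dye normalization, and the log ratio is a log10 of red over green with a p-value from the software's error model. The deposited series table holds a score per probe. It equalled a signed fold (Rbpj-cKO over control) computed here on processed signals with a floor of 15.8 (male) and 13.8 (female), for 100% of the 39030 probes of 1 spot within 0.001 on the log2 scale, and its median was 1.0 on each array. How probes of 10 spots were summarised there is not known. No per-sample column was left unused.

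Background was corrected on the mean signals by normexp in limma (offset 50) and loess within each array, giving control spots no weight. Outlier spots (200 male array, 274 female array) and controls were then dropped, and spots averaged per probe. Probes well above background on both arrays in either group were kept, 17 of the 20 probes of the 10 genes. Of all probes, 26412 were named through RefSeq accessions (GRCm38.p6 gene table) and 13017 by the files. The probe of highest mean intensity stood for a gene. Levels are log2 intensities after loess and Aquantile, and levels of different probes are not comparable. Positions of probes, on mm9, were read from the files; exons and introns were not analysed here. Ratios, turned to Rbpj-cKO over control, were tested two-sided in limma 3.58.1 (lmFit and eBayes, under R 4.3.3) and Benjamini-Hochberg adjustment over 20989 features, with 1 residual and 10.3 prior degrees of freedom. The number of arrays limits the precision. The fit was tested on simulated data. Figures were drawn with matplotlib 3.10.9.

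The 10 genes and all lists were chosen with earlier results of these data known. From each list the text names genes past the test and, in the 5 structural and smooth muscle lists, the 2 highest and 2 lowest by mean among those well above background in all 4 channels. Acta2, Myh11, Cnn1, Tagln, Myocd and Rbpj are named whatever their values, and the filtered-out genes were named after their values were seen. One gene that this rule names is not reported here. Alternatives were other background, scaling and filter settings, probe summaries, an intensity trend, the series table and, added later, removal of the position trend.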

Additional observations from a re-analysis of the deposited data

Results flagged for a closer look

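Each sex is represented by 1 array, which also has its own dye orientation, and 7 of the genes named had ratios of opposite sign on the male and female array. The difference was not tested for any of them, and 58.6% of all features had opposite signs. Among the 10 genes, the male minus the female log2 ratio was -0.33 for Pdlim3, 0.17 for Pdlim7 and -0.41 for Vcl. Among related genes it was -0.45 for Actn4, 0.58 for Bcar1, -1.07 for Cav2 and -0.52 for Pdlim1.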

How the results depend on the processing

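None of the 10 genes passed the test under any of the 10 alternative settings (lowest adjusted p 0.0811, for Synpo2), and their number lower on both arrays was 4 to 7. The number at least 1.5-fold lower on both, a count added to the alternatives after the data were seen, was 2 with median centring and 2 with a gene's probes averaged, and 4 in the others. The count of all features past the test, 27 here (lowest adjusted p 0.000694), depended on the setting. It was 0 with Agilent's processed signals, median centring, no filter on dim probes, the series table and the row and column trend removed (lowest adjusted p 0.0536, 0.156, 0.0521, 0.0749 and 0.147). It was 69 without background correction, 10 when a gene's probes were averaged, 42 with every probe a feature and 41 when the prior variance followed intensity. The calls of Ckm, Myh6, Myl4 and Heyl are thus lost in the 5 settings with none past the test, and the cause was not tested. Over the settings the mean log2 ratio of Des ran from -0.68 to -0.58, of Synm from -1.24 to -0.77, of Synpo2 from -0.89 to -0.80 and of Ldb3 from -0.72 to -0.44. The -1.24 of Synm is that of its second probe, the brightest with processed signals. Its first probe had -0.87 (male array) and -1.15 (female array) there. Of 100 recomputed ratios of the 10 genes, 96 kept their sign, and the other 4 were of Pdlim7: -0.030 with processed signals and with the series table, -0.089 with the mean of its probes and -0.026 with the trend removed. The ratios equalled those of the main setting under both filter changes, with every probe a feature and with the intensity trend. Those settings could not turn a sign, nor could the mean of probes for the 5 genes with 1 probe. Without the male array the sign turned for Pdlim3 (0.0012), Pdlim7 (-0.063) and Vcl (0.020), and single arrays ran from -0.33 to 0.0012, -0.063 to 0.11 and -0.39 to 0.020 for these genes. No test and no count over both arrays can be had from 1 array. The test is itself paired, since each ratio sets both groups against each other within an array, and no further block was fitted.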
